A study of Mus musculus with 36 samples.

Results

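The genes described here are the liver metallothioneins Mt1 and Mt2, the metal-sensing transcription factor Mtf1, the zinc exporters Slc30a1 and Slc30a10 and the zinc importers Slc39a4, Slc39a5 and Slc39a14. They are 8 of the 37325 genes named on an Agilent mouse expression array, and are read by 12 of its 56605 probes. All probes that carry one of these 8 gene names were taken. Mt2 was chosen by its measured values, as its difference between genotypes changed with time of day in these same arrays, so its levels are given as a description with no test. Of the 8 genes, 7 (11 probes) passed a filter on dim signals. The probe for Slc39a5 did not, so counts of called genes below are over the 6 members other than Mt2 and Slc39a5.

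Liver RNA was measured on 36 arrays, 1 per mouse, in 6 groups of 6 male mice aged 11 weeks. The knockout mice (IRLKO in the labels) carry LoxP sites around the fourth exon of the insulin receptor gene Insr together with TTR-CreTam, a tamoxifen-inducible Cre recombinase driven by the transthyretin promoter, which is active in hepatocytes. The control mice (IRLWT) have intact Insr. Both were bred with C57BL/6J, ate standard chow freely and were labelled as untreated. Livers were taken at Zeitgeber time (ZT) 8, 12 or 16, counted in hours from lights-on, with lights off at ZT12. The labels give neither the timing of tamoxifen nor whether controls carried Cre, so effects of the drug or of Cre cannot be told apart from loss of Insr.

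Metallothioneins are small, cysteine-rich proteins that bind zinc, copper and cadmium and buffer free zinc in the cell. Zinc that enters the cytosol binds MTF-1, which then binds metal response elements in promoters and raises transcription of Mt1, Mt2 and the exporter gene Slc30a1. In liver, Mt1 and Mt2 are also known to be raised by glucocorticoids and by inflammatory signals acting through STAT3. ZIP (SLC39) transporters carry metals into the cytosol and ZnT (SLC30) transporters carry them out.

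Array depth and labels were checked first. Between 53.7% and 63.1% of the spots of each array were well above background, the 75th percentile signal ran from 311 to 525 intensity units, and 0 spots were saturated. Precision rests on the number of arrays. Insr was lower in knockouts at each time, by log2 ratios at ZT8, ZT12 and ZT16 of -1.77, -1.88 and -1.65 (limma adjusted p = 1.18e-11, 2.16e-12 and 2.87e-11). All 7 hepatocyte markers on the list passed the filter. Knockout ZT8 replicate 3 stands apart from the other ZT8 knockouts, so results were also computed without it. Levels are given in log2, with 0 at the signal of an array's 75th percentile, so that a difference of 1 is a 2-fold change in signal. A level can be compared between groups for a probe, but not between probes.

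The promoters of Mt1, Mt2 and Slc30a1 are shown because these are the textbook targets of MTF-1. Below are the 250 bases before the start that RefSeq (GRCm38.p6) gives for each, 5′ to 3′. Capitals mark the 7 bases that match the metal response element core, written TGCACNC or TGCGCNC and searched on both strands.
Mt1: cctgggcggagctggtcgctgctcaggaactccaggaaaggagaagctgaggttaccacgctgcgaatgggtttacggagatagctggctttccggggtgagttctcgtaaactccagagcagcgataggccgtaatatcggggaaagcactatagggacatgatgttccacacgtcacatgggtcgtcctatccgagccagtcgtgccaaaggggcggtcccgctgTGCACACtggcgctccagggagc
Mt2: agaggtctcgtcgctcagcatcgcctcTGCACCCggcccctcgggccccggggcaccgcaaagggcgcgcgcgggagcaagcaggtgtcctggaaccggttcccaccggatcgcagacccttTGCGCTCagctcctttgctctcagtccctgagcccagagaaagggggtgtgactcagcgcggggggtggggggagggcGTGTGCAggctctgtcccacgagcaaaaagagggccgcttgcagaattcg
Slc30a1: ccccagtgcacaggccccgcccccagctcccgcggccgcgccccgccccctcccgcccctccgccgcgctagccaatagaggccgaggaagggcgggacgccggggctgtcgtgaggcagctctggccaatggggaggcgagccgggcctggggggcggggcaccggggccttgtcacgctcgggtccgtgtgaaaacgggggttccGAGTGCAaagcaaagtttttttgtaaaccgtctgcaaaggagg
These windows are chr8:94178839-94179088 for Mt1, chr8:94172368-94172617 for Mt2 and chr1:191906531-191906780 for Slc30a1, all on the plus strand. Mt2 held 3 matches, a number that 1.26% of the 32851 windows of this length reached. Mt1 and Slc30a1 held 1 match each in the bases shown, and 21.4% of windows held at least 1. In the whole windows of 300 bases, which run 50 bases past the start, Mt2 held 4 matches, Mt1 3 and Slc30a1 2, and 0.517%, 1.97% and 7.11% of windows held as many. Most of the Mt1 matches thus lie beyond the 250 bases shown. Slc30a10 held 3 matches, of which 1 pair overlaps, and Mtf1 held 0. A match is only a run of letters, and binding was not measured.

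Mt2 signal was higher in knockouts than in controls at ZT8 and ZT12, and the genotypes overlapped at ZT16. Its probe lies at chr8:96697371-96697430 (mm9, plus strand). In controls the lowest, median and highest levels were 1.46, 2.24 and 4.28 at ZT8, 2.75, 3.89 and 5.65 at ZT12, and 3.82, 5.03 and 5.50 at ZT16 (n = 6 each). In knockouts they were 5.74, 6.25 and 6.89 at ZT8, 6.51, 6.90 and 8.19 at ZT12, and 4.39, 5.60 and 6.92 at ZT16. Every knockout was above every control at ZT8 and at ZT12, while at ZT16 3 of 6 knockouts were above all controls and the groups overlapped. The fitted knockout minus control differences at ZT8, ZT12 and ZT16 were 3.85, 3.19 and 0.85. They are 14.4-fold, 9.12-fold and 1.80-fold. Control levels were higher at ZT16 than at ZT8 by 2.45, whereas knockout levels at ZT16 were below those at ZT12 by a difference of -1.46. The groups in ascending order of mean were control ZT8 (2.41 ± 0.99), control ZT12 (3.98 ± 1.14), control ZT16 (4.91 ± 0.64), knockout ZT16 (5.71 ± 0.85), knockout ZT8 (6.32 ± 0.40) and knockout ZT12 (7.11 ± 0.59; SD, n = 6 each). Neighbours in this order overlapped in their ranges throughout. Within the 3 wash batches, which each hold 1 to 3 mice of a group, the ZT16 difference ran from -0.02 to 1.48.

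Mt1, which lies beside Mt2, followed the same pattern in the probe that represents it. That probe, A_66_P111660, lies at chr8:96704165-96704224 (mm9, plus strand). Its lowest, median and highest levels in controls were 3.78, 4.08 and 5.68 at ZT8, 4.23, 5.06 and 6.01 at ZT12, and 5.17, 6.15 and 7.16 at ZT16. In knockouts they were 7.10, 7.21 and 7.49 at ZT8, 7.01, 7.58 and 8.51 at ZT12, and 6.09, 6.90 and 7.55 at ZT16. Again every knockout exceeded every control at ZT8 and ZT12 and the groups overlapped at ZT16. Mt1 was higher in knockouts by 2.84 at ZT8 (SE 0.33, limma adjusted p = 7.57e-08) and by 2.60 at ZT12 (adjusted p = 2.54e-07). These are 7.15-fold and 6.07-fold. At ZT16 the difference was 0.67 (95% interval -0.01 to 1.36, adjusted p = 0.108), and it passed the threshold of 0.05 only when control ZT16 replicate 4 was left out (adjusted p = 0.0459). The genotype effect of Mt1 differed between times (moderated F test, adjusted p = 0.00415) and was smaller at ZT16 than at ZT8 by a difference of -2.16 (adjusted p = 0.00285). As Mt2 was chosen for such a change and Mt1 follows Mt2 closely, these tests of Mt1 are not independent of that choice. In controls, Mt1 rose from ZT8 to ZT16 by 1.77 (adjusted p = 0.000148). In knockouts the change was -0.40 (adjusted p = 0.425).

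The other Mt1 probe, A_52_P423810, at chr8:96703844-96703903 (mm9, plus strand), is assigned to a predicted transcript and did not show the rise in controls. Its medians at ZT8, ZT12 and ZT16 were -3.41, -3.59 and -3.60 in controls and -0.77, -0.69 and -2.31 in knockouts. Single mice stood far above their group, up to 0.40 among ZT8 controls. The knockout minus control differences of this probe at the 3 times were 2.27, 2.40 and 1.43 (adjusted p = 0.0137, 0.00782 and 0.114 in a fit over all probes, where 33.7%, 39.3% and 37.9% of probes were called), and the F test over times gave an adjusted p of 0.816. With both Mt1 probes averaged, the gene's rise in controls was 0.53 (adjusted p = 0.478) and its F test gave 0.274. The higher signal in knockouts at ZT8 and ZT12 was thus seen with both probes, and the dependence on time with only 1 of them.

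**Figure D1:**
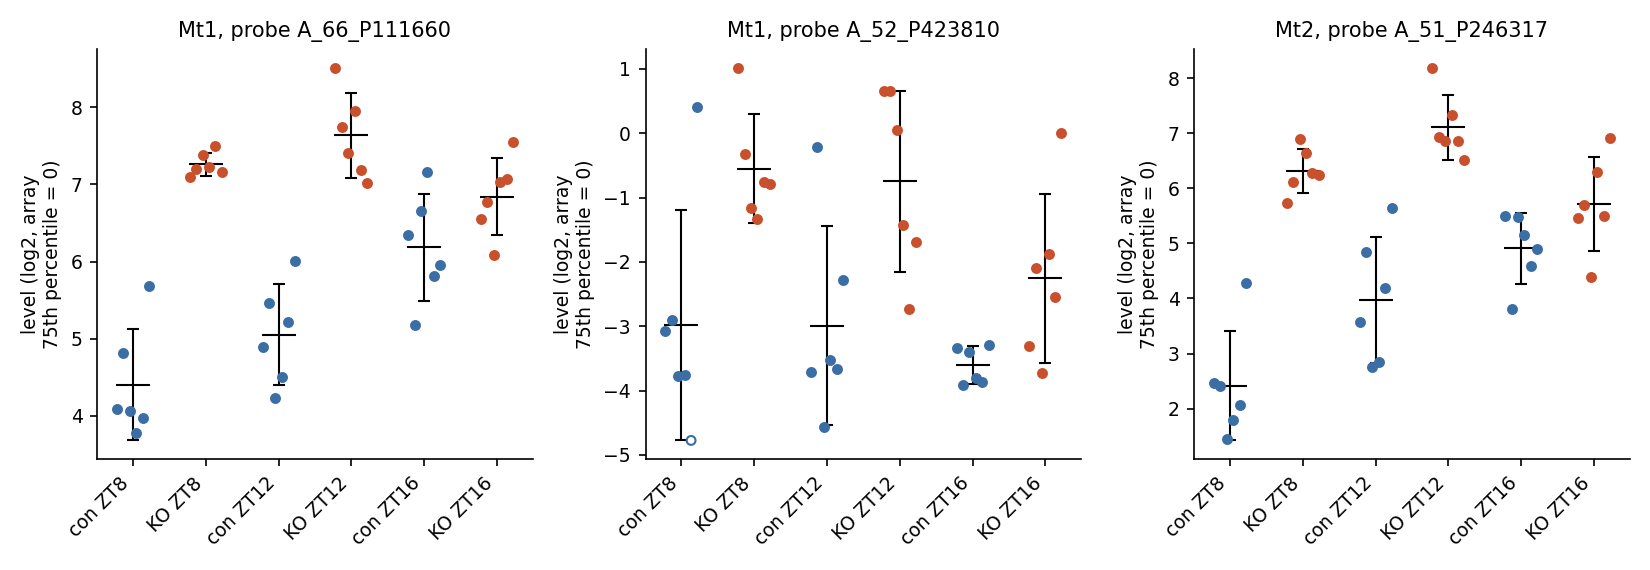
Levels of the probes for Mt1 and Mt2 (log2, 75th percentile of the array at 0) for each of 36 mice, in control (con, blue) and knockout (KO, red) livers at ZT8, ZT12 and ZT16. Bars are mean ± SD (n = 6), and open circles are spots not well above background. Knockouts lay above all controls at ZT8 and ZT12 for A_66_P111660 and Mt2, and not at ZT16.

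Mtf1, the gene for the metal-sensing factor, was lower in knockouts, at times that differed between its probes. The probe that represents it, A_66_P122382 (chr4:124521937-124521996, mm9), had medians of 2.36, 2.38 and 2.60 in controls at ZT8, ZT12 and ZT16 and of 2.10, 2.27 and 2.31 in knockouts, with all 36 values between 1.79 and 2.73. The differences at the 3 times were -0.26, -0.13 and -0.30 (SE 0.09 at ZT8; adjusted p = 0.0287, 0.258 and 0.00847). For this probe all 6 knockouts were below all controls at ZT16 only. The ZT8 call was lost without knockout ZT8 replicate 3 (adjusted p = 0.105) and without any of 3 ZT8 controls. It was also lost with no filter on dim probes and with only the groups compared fitted (adjusted p up to 0.113). Of the 3 further probes, A_52_P236072 was called lower at each time (-0.67, -0.67 and -0.41; adjusted p = 0.000254, 0.000208 and 0.0174 over all probes). A_55_P2715466 was called lower at ZT12 and ZT16 (-0.37, -0.62 and -0.53; adjusted p = 0.0711, 0.00221 and 0.00828). For both, all 6 knockouts were below all controls at ZT8 and ZT12. A_52_P467266 gave 0.02, 0.00 and -0.24 and was called at no time. With the probes of Mtf1 averaged, its ZT12 difference was -0.36 and was called (adjusted p = 0.00342). None of the 4 probes was called higher in knockouts at any time. The genotype effect of Mtf1 did not pass the test for a change over times (F test, adjusted p = 0.687).

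Slc30a1 encodes ZnT1, the exporter of the plasma membrane. Its probe lies at chr1:193736760-193736819 (mm9, plus strand). The lowest, median and highest control levels were 1.35, 1.45 and 1.54 at ZT8, 1.44, 1.63 and 1.91 at ZT12, and 1.02, 1.74 and 1.90 at ZT16. Knockout levels were 1.00, 1.57 and 1.75 at ZT8, 1.01, 1.13 and 1.34 at ZT12, and 0.63, 0.89 and 1.06 at ZT16. The genotypes overlapped at ZT8 and separated at ZT12, and at ZT16 only control replicate 6 (1.02) reached into the knockout range. The knockout minus control difference at ZT8 was 0.05 (adjusted p = 0.767). It was -0.51 at ZT12 (SE 0.11, adjusted p = 0.000372), and its ZT16 value of -0.77 (adjusted p = 1.73e-06) is a 1.70-fold lower signal. The effect differed between times (F test, adjusted p = 0.00233), with a ZT16 effect below that at ZT8 by a difference of -0.82 (adjusted p = 0.000785). By size, the genotype difference of Slc30a1 was largest at ZT16, where that of Mt1 was smallest. The ZT16 effect of Slc30a1 was not shown to differ from that at ZT12 (-0.25, adjusted p = 0.537). Slc30a1 also fell in knockouts from ZT8 to ZT16, by 0.64 (adjusted p = 4.11e-05), while in controls the change was 0.18 (adjusted p = 0.244).

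Slc30a10 encodes ZnT10, which is known mainly as a manganese exporter. It was lower in knockouts at each time, most at ZT8. Its probe is at chr1:187292107-187292166 (mm9, plus strand). Control levels (lowest, median, highest) were -0.93, -0.56 and -0.04 at ZT8, -1.15, -0.69 and -0.40 at ZT12, and 0.05, 0.17 and 0.44 at ZT16. Knockout levels were -3.15, -3.02 and -2.23 at ZT8, -2.56, -1.60 and -1.08 at ZT12, and -1.09, -0.60 and -0.07 at ZT16. The genotypes did not overlap at ZT8 or ZT16, and at ZT12 5 of 6 knockouts were below all controls. The difference was -2.25 at ZT8 (SE 0.21, adjusted p = 1.08e-09), a 4.77-fold lower signal. At ZT12 and ZT16 it was -0.98 and -0.74 (adjusted p = 0.000388 and 0.0057). With normexp background correction the ZT8 difference was -1.46, still called. The effect changed over times (F test, adjusted p = 0.00215) and was less negative at ZT16 than at ZT8 by 1.51 (adjusted p = 0.00112). Slc30a10 rose from ZT8 to ZT16 in both genotypes, by 2.23 in knockouts (adjusted p = 3.46e-09; 1.41 with normexp) and by 0.72 in controls (adjusted p = 0.011). The call in controls was lost with slide as a block (0.57, adjusted p = 0.0674).

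Slc39a14 encodes ZIP14, an importer of zinc, iron and manganese that is induced in liver by IL-6. Its probe lies at chr14:70703394-70703453 (mm9, minus strand). Control medians were 3.54, 3.70 and 3.77 at ZT8, ZT12 and ZT16, and knockout medians 3.44, 3.75 and 3.28. At ZT16, where controls ran from 3.43 to 3.86 and knockouts from 3.04 to 3.51, only control replicate 6 reached into the knockout range. The differences at ZT8 and ZT12 were -0.09 and 0.11 (adjusted p = 0.582 and 0.508), and that at ZT16 was -0.43 (SE 0.12, adjusted p = 0.00469). In knockouts Slc39a14 fell from ZT12 to ZT16 by 0.49 (adjusted p = 0.00535), a comparison in which 12.6% of genes were called. The change of its genotype effect over times did not pass (F test, adjusted p = 0.0971), so the ZT16 effect is not shown to differ from the others.

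Slc39a4 encodes ZIP4, best known as the zinc importer of the intestine. Its probe, at chr15:76442866-76442925 (mm9, minus strand), was well above background on all 36 arrays. Medians were 4.81, 5.19 and 5.05 in controls and 4.93, 4.98 and 5.27 in knockouts, and the genotypes overlapped at every time. The difference was 0.03 at ZT8 (95% interval -0.35 to 0.42, adjusted p = 0.91), -0.26 at ZT12 (-0.64 to 0.12, adjusted p = 0.28) and 0.45 at ZT16 (0.07 to 0.83, adjusted p = 0.0566). The ZT16 value passed the threshold under 4 alternatives, with adjusted p from 0.00546 in the authors' deposited table to 0.0464, and in 8 of 36 fits that left out 1 array. At ZT16 the control values fell apart, with 2 of 6 at 4.13 and 4.16 and a median of 5.05. Slc39a5, which encodes ZIP5, was well above background on 5 of 36 arrays, 4 of them controls, and was not tested.

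**Figure D2:**
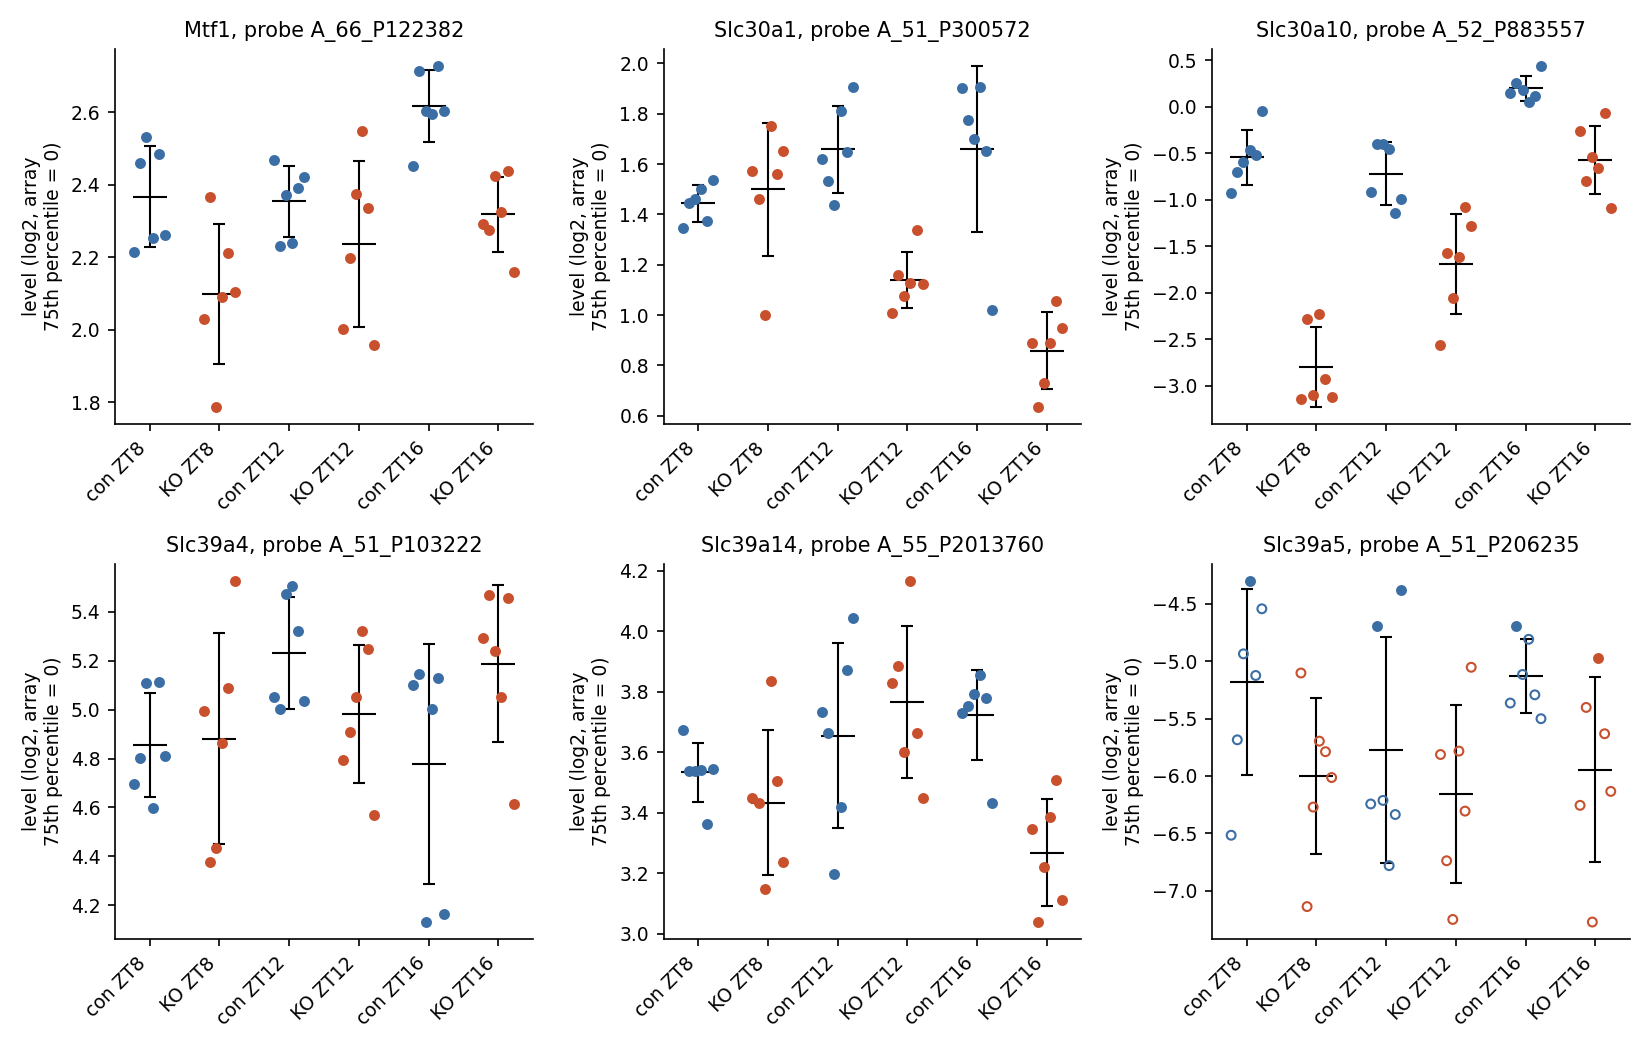
Levels of the other members (log2, 75th percentile of the array at 0) for each mouse, by genotype (con, blue; KO, red) and time, with mean ± SD (n = 6) and open circles for spots not well above background. Slc30a1 fell in knockouts from ZT8 to ZT16 while Slc30a10 rose in both genotypes (the rise in controls was not called with slide as a block), and most Slc39a5 spots are open.

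Of the 6 members counted, 3 were called at ZT8 (Mt1 higher, Mtf1 and Slc30a10 lower), where 35.4% of all 23054 genes were called. At ZT12 there were 3 (Mt1 higher, Slc30a1 and Slc30a10 lower), where 42.2% of genes were. At ZT16 there were 4, all lower (Mtf1, Slc30a1, Slc30a10 and Slc39a14), where 39.9% of genes were called and 20% were called lower. The members' counts were not tested against these shares. The groups did not overlap for 2 of the 6 at each time, where 15.5%, 21.3% and 19.2% of all genes did not. The F test called 3 of 6 (Mt1, Slc30a1 and Slc30a10) where 8.46% of genes were called, and the same 3 passed for the ZT16 effect minus the ZT8 effect, where 9.75% were. Mt2 was chosen for such a change over times and Mt1 follows Mt2 closely (r = 0.887 within groups). The Mt1 calls in these counts are thus not independent of that choice. Between ZT8 and ZT16, 3 of 6 were called in controls, all higher (Mt1, Mtf1 and Slc30a10; 26.6% of genes were called and 13.4% were called higher), and 2 of 6 in knockouts (Slc30a1 lower, Slc30a10 higher; 28.9% of genes). The Mtf1 call in controls (0.26, adjusted p = 0.0364) was lost in 7 of 36 fits that left out 1 array and with median centring, no filter, averaged probes or slide as a block (adjusted p up to 0.188). Comparisons that share a group, such as ZT16 minus ZT8 in controls and the genotype difference at ZT8, are not independent.

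**Figure D3:**
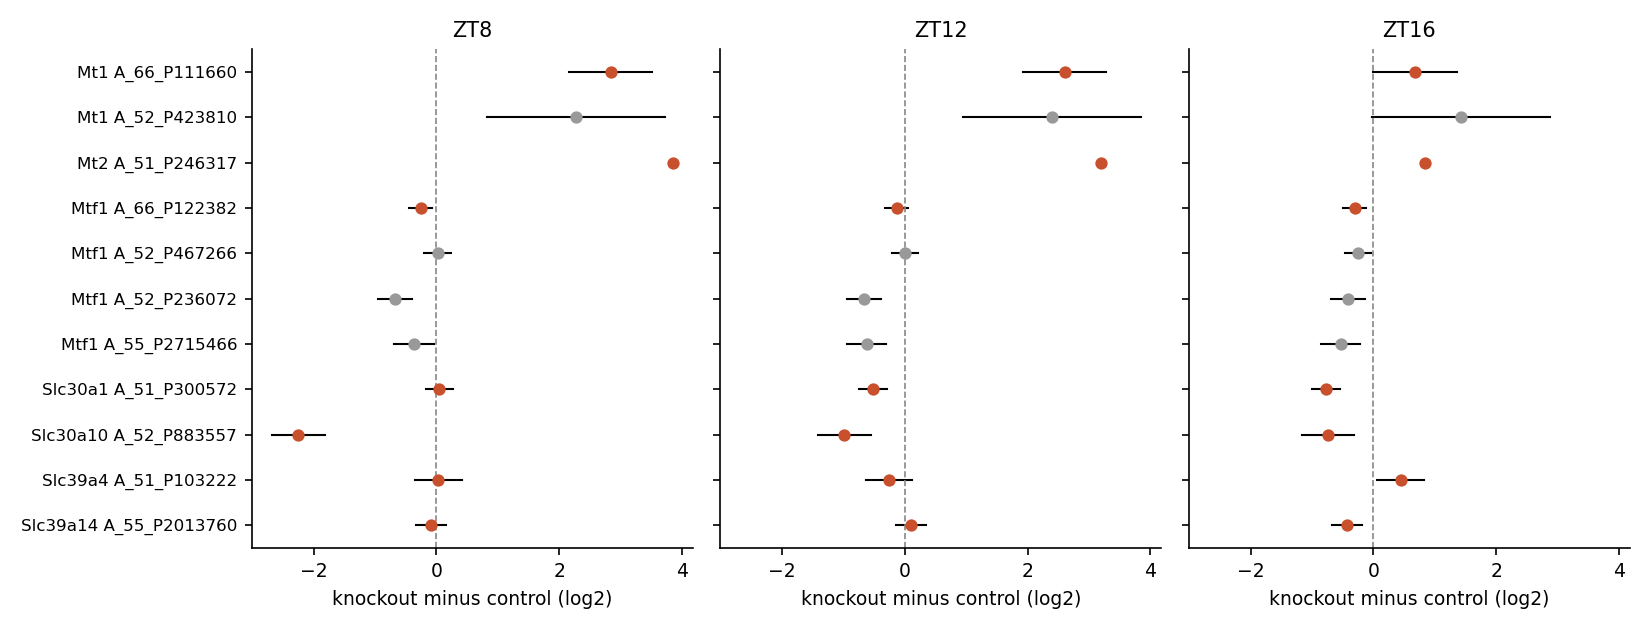
Knockout minus control difference (log2) at each time for the 11 probes kept, with 95% intervals except for Mt2, which was chosen for this effect. Red points are the probes that represent a gene and grey points its further probes. The Mt1 probe A_66_P111660 and the Mt2 probe have their smallest difference at ZT16, and Slc30a1 its largest. The ZT16 and ZT12 effects of Slc30a1 were not shown to differ (limma adjusted p = 0.537).

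Whole liver was measured, so fewer cells of a type and less RNA per cell cannot be told apart. Some markers of other cells were also called between genotypes. Over all genes, 16.7%, 19.6% and 19.9% were called higher at ZT8, ZT12 and ZT16, and 18.7%, 22.6% and 20% lower. The marker counts below were not tested against these shares. At ZT8, 1 of 6 macrophage markers was called higher. For endothelial, stellate, bile duct and neutrophil markers, 0 of 5, 0 of 6, 0 of 5 and 0 of 4 were called. Of 3 lymphocyte markers tested, 1 was higher and 1 lower at ZT8. Lower at that time were also 1 of 3 red cell and 1 of 4 fat markers. At ZT12 and ZT16, 4 and 1 macrophage, 4 and 3 endothelial and 2 and 2 stellate markers were higher. For bile duct, 1 marker was lower at ZT12 and 1 higher at ZT16, and 1 neutrophil marker was higher at ZT16. Lymphocyte markers at these 2 times gave 1 and 1 higher and 2 and 1 lower. Red cell markers gave 2 and 1 higher and 1 and 1 lower, and fat markers 1 and 1 lower. Summed signal (75th percentile of the array at 1) ran from 22.4 to 116 in controls and 39.1 to 241 in knockouts for macrophages. It ran from 15.1 to 23.7 and 17.7 to 29.3 for endothelium, and from 34.5 to 78.9 and 37.8 to 99.0 for stellate cells. Of 7 hepatocyte markers, 2, 3 and 3 were lower at the 3 times and 0, 2 and 0 higher. Of the 4 intestinal and 5 pancreatic markers only 2 each passed the filter, and in both lists the sums of the genotypes did not overlap. The intestinal sum was 11.7 to 45.9 in controls and 1.39 to 5.28 in knockouts, nearly all of it Fabp2, a fatty acid binding protein, while Vil1 was higher in knockouts. The pancreatic sum was 0.349 to 1.90 in controls and 2.14 to 5.55 in knockouts, nearly all of it the elastase gene Cela2a. The part of these cells in the members' differences was not tested.

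Mouse-to-mouse differences within a group separate what moves with Mt2 from what differs between groups. After group means were removed, Mt1 and Mt2 rose and fell together over the 36 mice (Pearson r = 0.887, Spearman rho = 0.875), and r ran from 0.549 to 0.991 in the 6 groups. The two-sided permutation p within groups was 1e-05 for both, the smallest that the resamples can give, and 6e-05 after adjustment over the 6 members compared. Without the 2 mice farthest from the Mt2 median r was 0.843, and with wash batch means removed as well it was 0.889. Slc39a4 had an r of -0.373 (adjusted permutation p = 0.0467) and a rho of -0.362 (adjusted permutation p = 0.0735). The Slc39a4 relation lost its call without the 2 farthest mice (r = -0.397, adjusted p = 0.0549) and without knockout ZT8 replicate 3 (r = -0.351, adjusted p = 0.0593). Mtf1 (r = -0.305), Slc39a14 (0.354), Slc30a10 (-0.232) and Slc30a1 (0.0986) did not pass (adjusted permutation p = 0.0845, 0.0845, 0.213 and 0.54). A relation of the exporter genes to Mt2 among mice of the same group was thus not detected. The Mt1 and Mt2 probes share no run longer than 7 bases. They were compared with each other only and not with whole transcripts.

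The likeness to Mt2 of each of 17897 genes that were well above background on all 36 arrays was ranked by Pearson r over the 6 group means, as a description with no test. Mt1 itself had an r of 0.988. The 5 genes most like Mt2, other than Mt1, were Pip5k1a (0.994), Mllt11 (0.992), Ctif (0.987), Adrb1 (0.986) and Mdn1 (0.985). After group means were removed, r over 36 mice was 0.229 for Mllt11, -0.108 for Ctif, -0.0652 for Adrb1 and 0.18 for Mdn1. For the probe named Pip5k1a it stayed at 0.961, above that of Mt1. Pip5k1a encodes a lipid kinase that makes phosphatidylinositol 4,5-bisphosphate.

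The probe in question, A_55_P1999902, is shown because its letters bear on what it reads. It is placed at chr3:94901128-94901187 (mm9, minus strand), and capitals mark cysteine codons (TGC or TGT) in its reading frame that is without a stop and holds the most of them.
A_55_P1999902: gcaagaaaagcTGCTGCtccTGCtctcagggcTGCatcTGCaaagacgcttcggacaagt
Of the 19 codons in that frame 5 code for cysteine, a number that 229 of 56605 probes on the array (0.405%) reached in any frame. The levels of this probe had medians of 0.65, 1.62 and 2.67 in controls and 3.62, 4.28 and 3.11 in knockouts at ZT8, ZT12 and ZT16. Group means of knockouts exceeded those of controls by 2.91, 2.83 and 0.68. Of the 3 other probes named Pip5k1a, A_51_P441974 was well above background on all 36 arrays and gave -0.06, 0.23 and 0.10, with an r of -0.22 with Mt2 within groups. The probes A_55_P1999908 and A_55_P2720824 were well above background on 20 and 5 of 36 arrays. Signal at A_55_P1999902 thus followed Mt2 and not the other measured Pip5k1a probe. Whether metallothionein RNA binds this probe was not tested. Its longest run shared with the probe for Mt2 is 5 bases, but whole transcripts were not compared. That run therefore cannot show whether the probe matches another part of the Mt2 transcript.

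**Figure D4:**
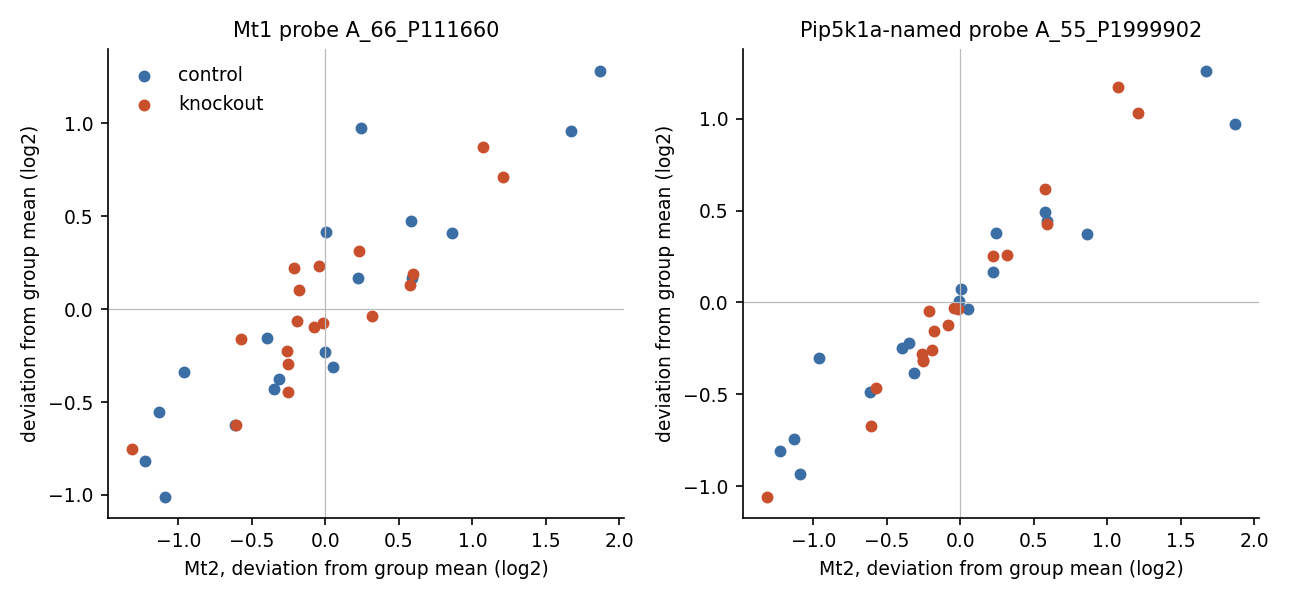
Deviation of each of 36 mice from its group mean (log2) for Mt2 (x axis) against the Mt1 probe A_66_P111660 (left) and the Pip5k1a-named probe A_55_P1999902 (right). Blue is control and red is knockout. Points lie along a rising line in both panels, with r of 0.887 and 0.961.

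The wider zinc transporter families moved in both directions. Over all genes 16.7%, 19.6% and 19.9% were called higher at ZT8, ZT12 and ZT16 and 18.7%, 22.6% and 20% lower, so that 47.2%, 46.4% and 49.9% of the calls were higher (35.8%, 41.2% and 34.7% with median centring, and 37% at ZT12 with normexp). Of 8 other SLC30 exporters, all tested, 1 was higher and 3 lower in knockouts at ZT8, 1 higher and 1 lower at ZT12, and 1 higher and 2 lower at ZT16. Their median differences were -0.24, -0.10 and -0.06, beside 0.01, -0.02 and 0.00 over all genes. Slc30a9 gave -0.41, -0.27 and -0.46 (adjusted p = 0.00705, 0.0698 and 0.00272). Slc30a6, a transporter of the secretory pathway, gave -0.24 at ZT8 (adjusted p = 0.00369) and 0.12 at ZT16 (adjusted p = 0.147), and Slc30a5, of the same pathway, passed at no time (-0.26, -0.09 and -0.07). Slc30a3 and Slc30a8, named after their values were seen, had the largest differences of the list but dim signals. Each reached the filter through the genotype where it was high, so its calls and p-values are a description and no test of that difference. The counts of the list include both genes. Slc30a3 made up every higher call, and Slc30a8 the lower call at ZT12. Slc30a3 was called higher at each time (adjusted p = 0.0336, 5.39e-05 and 0.000177) and was well above background on 10 of 18 knockout and 1 of 18 control arrays. Against the lowest signal well above background it was at least 1.77-fold higher at ZT12 and at least 1.62-fold at ZT16, and its ZT8 call was lost under 13 alternatives. Slc30a8, the zinc transporter of insulin granules in beta cells, was called lower at each time (adjusted p = 0.00102, 5.95e-05 and 1.49e-06), with 10 of 18 control and 0 of 18 knockout arrays well above background. It was at least 1.11-fold lower at ZT12 and at least 1.42-fold at ZT16. Of 10 other SLC39 importers tested, 1, 4 and 3 were higher and 2, 3 and 3 lower at ZT8, ZT12 and ZT16, and the medians were 0.00, -0.06 and 0.00. Slc39a11 was lower at all times (-0.48, -0.97 and -0.47; adjusted p = 0.000492, 8.36e-09 and 0.00046) and Slc39a13, a transporter of intracellular vesicles, was higher (0.48, 0.44 and 0.64; adjusted p = 7.64e-05, 0.000179 and 1.13e-06). Slc39a6 was higher at ZT12 and ZT16 (1.00 and 0.72; adjusted p = 2.63e-05 and 0.00133). With a gene's probes averaged, the calls of Slc30a9 and Slc39a13 at ZT16 and of Slc39a11 at ZT8 and ZT16 were lost. Mt3, a metallothionein known mainly from brain, differed by -0.07, 0.00 and -0.10 and passed at no time, and Mt4 was not tested.

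Copper is the other physiological metal of metallothioneins. Among all genes, 16.7%, 19.6% and 19.9% were called higher in knockouts at ZT8, ZT12 and ZT16 and 18.7%, 22.6% and 20% lower. Counts of copper-handling genes were not tested against those shares. Of 9 such genes, 0 were called higher in knockouts, and 4, 5 and 5 were called lower at ZT8, ZT12 and ZT16. Their median differences were -0.24, -0.41 and -0.33. At ZT16, 1 was called higher with normexp, with quantile normalization and in the authors' deposited table. Atox1, the copper chaperone, gave -0.79, -1.06 and -0.82 (adjusted p = 3.16e-10, 4.33e-13 and 1.04e-10). Commd1, which promotes copper export, gave -0.41, -0.41 and -0.53, and Slc31a1, the importer CTR1, gave -0.24, -0.41 and -0.35, all called.

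Genes of pathways known to induce metallothioneins moved in both directions. Over all genes 16.7%, 19.6% and 19.9% were called higher at ZT8, ZT12 and ZT16 and 18.7%, 22.6% and 20% lower. The counts of these lists were not tested against those shares. Of 12 glucocorticoid-responsive genes, 3 were higher and 1 lower at ZT8, 3 and 1 at ZT12, and 2 and 7 at ZT16, with medians of 0.39, 0.09 and -0.85. For the ZT16 effect minus the ZT8 effect, 1 was called higher and 6 lower (median -1.35), where 9.75% of genes were called. The F test over times called 7 of 12, where 8.46% of genes were called. It called 3 of the 15 acute phase and 2 of the 10 oxidative stress genes below. The part of these pathways in the members' differences was not tested. Fkbp5 rose in controls from ZT8 to ZT16 by 2.73 (adjusted p = 9.6e-10), and its knockout minus control difference was 0.39, -0.29 and -2.45, of which only the last passed (adjusted p = 3.07e-09). Sgk1 was higher in knockouts by 0.85, 2.12 and 2.46 and Pck1, a gluconeogenic enzyme, by 1.39, 1.42 and 1.28, all called. Of 15 IL-6 and acute phase genes, 2, 3 and 4 were higher and 4, 6 and 6 lower. At ZT8 the 4 lower became 1 with quantile normalization and 2 in the authors' deposited table. At ZT12 the 3 higher became 1 with median centring and 4 in the authors' table. The list's median at ZT12 was -0.08, but 0.04 with quantile normalization and 0.06 in the authors' table. Socs3, a feedback inhibitor of STAT3 signalling, was higher at each time (1.58 at ZT8 and 1.41 at ZT16; adjusted p = 6.2e-05, 0.00248 and 0.000205 at the 3 times), and the fibrinogen genes Fga and Fgb were higher at ZT16 (0.78 and 0.52; adjusted p = 5.94e-05 and 8.06e-07). At ZT8 Fga was called lower (-0.39, adjusted p = 0.034), a call lost under 9 alternatives. The serum amyloid genes Saa1 and Saa2, named after their values were seen and near-identical in sequence, were lower at ZT12 (-2.46 and -2.55; adjusted p = 0.00332 and 0.00188) and ZT16 (-1.88 and -1.99; adjusted p = 0.0233 and 0.0136). Their ZT12 calls were lost when only the groups compared were fitted, and the ZT16 call of Saa1 without knockout ZT16 replicate 3 or control ZT16 replicate 1. Of 10 oxidative stress genes of the NRF2 pathway tested, 3, 3 and 4 were higher and 3, 4 and 2 lower. Among them Gclc, a subunit of the enzyme that makes the glutathione precursor, was lower (-0.72, -1.11 and -0.68), Osgin1 was higher (1.46, 1.36 and 1.44), and Sqstm1 was higher by 0.19, 0.32 and 0.59, all called. The small ZT8 value of Sqstm1 was -0.02 with its probes averaged, and its ZT8 call was lost under 10 further alternatives.

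**Figure D5:**
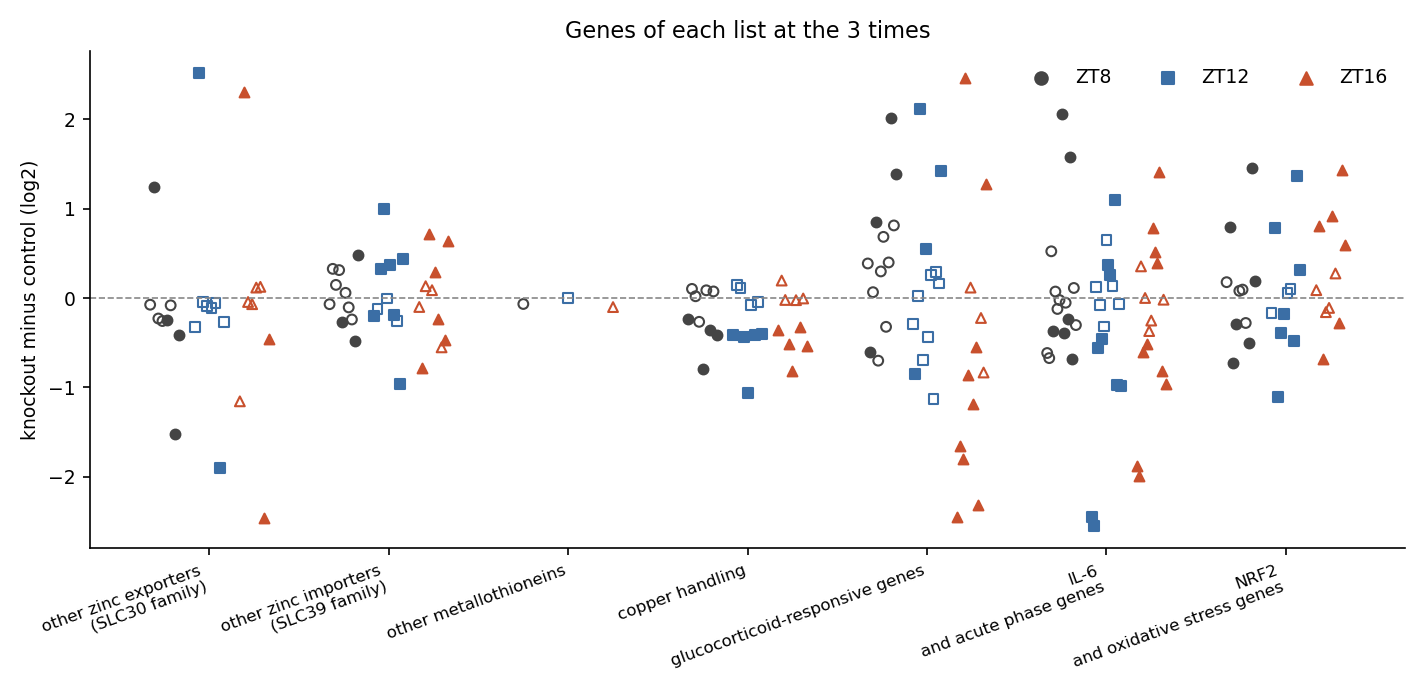
Knockout minus control difference (log2) of each tested gene of the 7 lists at ZT8 (circles), ZT12 (squares) and ZT16 (triangles). Filled symbols passed a limma adjusted p of 0.05. All called copper-handling genes lie below 0, and the called glucocorticoid-responsive genes lie on both sides. These directions were not tested against the shares called over all genes.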

How the data were processed

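Per the file headers, the deposited spot values are intensity units from 1-colour Agilent arrays, read with Feature Extraction 10.10.1.1. Background and spatial trend had been removed, with no normalization across arrays. Deposited spot flags of 0 or 1 mark outliers, saturation and spots well above background. The authors' deposited table holds log2 values of 32801 probes with identical sorted columns, so it is quantile normalized. It was used as an alternative.

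The signal was taken to log2 and the 75th percentile of each array was subtracted. Outlier spots were dropped and the spots of a probe averaged. Probes well above background on at least 6 of 36 arrays were kept (34771, of which 93 lacked a value and were dropped), and for each of the 23054 genes the brightest probe on average stood for the gene. limma 3.58.1 (lmFit and eBayes, R 4.3.3) was fitted over all genes with 6 group means and wash batch as a fixed effect, with 28 residual degrees of freedom. Benjamini-Hochberg adjustment was made over all genes of a comparison, at a threshold of 0.05. Correlations used 100000 permutations within groups. The fit was also run on simulated data with independent noise, no wash batch effect and few changed genes. These arrays differ from that, so the run does not show how the fit performs on them. Probe positions are mm9, as deposited. Promoters are from RefSeq, where 6 of the 8 genes matched.

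The members and gene lists were chosen with earlier results of these data known. Besides the members, at most 3 genes per list are named, those with the smallest p of a joint F test over the 3 genotype comparisons among genes that at least 1 group had well above background on all its arrays, and the 5 genes other than Mt1 most like Mt2. Exceptions are named as such. The labels do not say whether mice were littermates, so p-values measure the spread between these mice. Replicate numbers were not treated as pairs.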

Additional observations from a re-analysis of the deposited data

Results flagged for a closer look

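Among 66 groups of 6 mice searched (11 probes in 6 groups), 5 held a mouse whose gap to its nearest neighbour exceeded 0.625 of the group's range, and chance alone gives about 1 in 20 groups. Control ZT8 replicate 6 was high for Mt2 (4.28, others 1.46 to 2.47) and for the Mt1 probe A_52_P423810 (0.405, others -4.77 to -2.91). Control ZT16 replicate 6 was low for Slc30a1 (1.02, others 1.65 to 1.90) and for Slc39a14 (3.43, others 3.73 to 3.86). Knockout ZT8 replicate 6 was low for the Mtf1 probe A_55_P2715466 (-4.20, others -3.69 to -3.44). With those ZT16 control values left in, both Slc30a1 and Slc39a14 were called at ZT16, and each call held in all 36 fits that left out 1 array.

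The genotype effect differed between times, by the moderated F test of limma, for Mt1 (adjusted p = 0.00415), Slc30a1 (0.00233) and Slc30a10 (0.00215). The Mt1 result is not independent of the choice of Mt2, which Mt1 follows closely. Among the named genes of the lists the same test passed for Slc30a6 (adjusted p = 0.027), Slc39a11 (0.0318), Fkbp5 (8.18e-06), Sgk1 (0.0165), Fga (0.000937), Fgb (0.00127) and Sqstm1 (0.0279). By size, Mt1 and Slc30a10 had their largest genotype difference at ZT8 and Slc30a1 at ZT16. The Mt1 effects at ZT8 and ZT12 were not shown to differ (limma adjusted p = 0.895). Nor were the Slc30a1 effects at ZT12 and ZT16 (limma adjusted p = 0.537).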

How the results depend on the processing

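Over the members other than Mt2, 677 of 714 values kept their side of the threshold under alternative processing, 14 calls were lost and 23 gained, and 0 called values changed sign, while 9 uncalled values did. Leaving out 1 array gave 2118 of 2160, with 22 lost, 20 gained and 14 uncalled values of changed sign. The 108 and 324 such values of Mt2 kept their sign. Members called in controls from ZT8 to ZT16 fell from 3 to 1 with a gene's probes averaged (Slc30a10) and to 1 with slide as a block (Mt1). Genes called in knockouts from ZT8 to ZT16 fell from 6662 to 4362 when only the groups compared were fitted. Genes called by the F test (1951) were 1154 with median centring, 1274 with no filter on dim probes and 3711 with array weights, and 1456 to 3006 with 1 array left out. The F test takes all groups, so it has no fit of only the groups compared. The correlation of Slc39a4 with Mt2 (r = -0.373, adjusted p = 0.0467) was -0.397 (0.0549) without the 2 farthest mice and -0.351 (0.0593) without knockout ZT8 replicate 3. The ZT8 difference of Sqstm1 (0.19) was -0.0186 (adjusted p = 0.914) with its probes averaged. The cause of these shifts was not tested.

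Same-numbered mice of different groups did not deviate together (mean r = 0.00181 over 90 pairs, 14 of them over 0.1), and 8 of 36 arrays correlated best with their own number. With the replicate number as a block, 8188, 9496 and 9057 genes were called at ZT8, ZT12 and ZT16, against 8164, 9730 and 9204 without it, and 3, 3 and 4 members, as before. The number of arrays limits precision, and the dim probe of Slc39a5 allows no test.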
